A study of Arabidopsis thaliana with 8 samples.

Results

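Differentiating xylem was compared with cortex in roots of Arabidopsis thaliana. The comparison used 6 of the 8 arrays of the study, 3 of xylem and 3 of cortex, and took in every probe set that is not a control, whatever its function and whether or not its gene has a name beyond a locus tag. Both groups were of wild type columbia genotype and 6 days old. Root tips of about 1 cm were turned into protoplasts, cells carrying a green fluorescent protein marker of the tissue were sorted, and their total RNA was amplified in 2 cycles before hybridisation to Affymetrix arrays. The labels do not name the marker lines. Protoplasting and sorting were common to both groups, and the remaining 2 arrays held phloem sieve and companion cells treated in the same way.

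Xylem carries water through dead, hollow cells. While they differentiate, these cells lay down a secondary wall of cellulose, xylan and lignin under the plasma membrane, in bands or nets drawn by cortical microtubules, and then digest their own contents. Cortex is the living ground tissue around the stele, which expands, stores metabolites and makes many defence compounds.

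Levels are MAS5 intensities, 1 value per probe set and array in arbitrary units. Differences are xylem minus cortex on the log2(intensity + 16) scale, on which a value of 4 is 16-fold, and the pseudocount of 16 makes them understate the change of dim probe sets. A gene was called higher or lower when its limma p-value, adjusted over all probe sets by the Benjamini-Hochberg method, lay under 0.05. In a sorted bulk sample, fewer cells of a type and less RNA per cell cannot be told apart. The table holds no detection calls, so an intensity under 16 is not shown to differ from background.

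The sorted populations carried their own markers. Of the 5 measured xylem and secondary wall markers, all 5 (GUT2, IRX15, IRX15-L, AT1G66810 and PHV) were higher in xylem, with a summed intensity of 15372 to 17571 in the xylem arrays against 353 to 567 in the cortex arrays. Of the 5 measured cortex markers, 4 were lower in xylem, and the remaining one, AT1G62500, was dim in both. All 5 together had a summed intensity of 3848 to 4852 in cortex against 39.4 to 70.8 in xylem. Both endodermis genes, 2 of 5 phloem genes (CLE41 and AT5G02460) and both root hair expansins were also lower in xylem. Intensities were summed over all measured genes of each of these lists, called or not. In that order the sums were 90.0 to 97.1, 130 to 175 and 18.1 to 53.0 in xylem. The cortex sums were 465 to 735, 280 to 339 and 94.2 to 133. The part of these cell types in the results below was not tested. STZ, the measured gene of the protoplast stress list, did not pass at -0.27 (SE 0.26, adjusted p = 0.469).

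The arrays differed in ways that bear on every direction below. Median intensity was 41.2 to 42.7 in xylem and 61.4 to 62.4 in cortex. Over all probe sets the median difference was -0.14 on the deposited scale, and it moved to 0.29 with median centring, 0.04 with quantile normalization, -0.03 with trimmed-mean scaling and -0.76 after scaling to the hybridisation spike-ins. The ratio of 3' to 5' probe sets, a measure of RNA integrity, differed between the tissues in opposite ways for different control genes. For GAPDH it was 1.53, 2.63 and 1.82 in the xylem arrays against 1.49, 1.21 and 1.32 in cortex. An older pair of GAPDH probe sets gave a wider gap, at 4.89, 9.74 and 5.17 in xylem against 2.6, 2.26 and 1.98 in cortex. For ubiquitin it was 1.70, 2.10 and 1.90 in xylem against 2.81, 2.73 and 2.66 in cortex. Xylem replicate 2 had the highest GAPDH ratio, and its actin ratio was 9.69 against 5.21 to 6.31 in the other xylem and cortex arrays. It was the lowest xylem array for 151 of the 270 probe sets at least 16-fold lower in xylem, whereas xylem replicate 3 was the lowest for 188 of the 288 at least 16-fold higher. The part of RNA integrity in the results was not tested.

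Calls were made for 9696 of the 22746 tested (42.6%), 3074 of them higher and 6622 lower in xylem. The balance moved with the scaling: higher calls made up 31.7% of all calls on the deposited scale, 9.79% with spike-in scaling, 40.2% with trimmed-mean scaling, 48.9% with quantile normalization and 63.8% with median centring. The split also moved with the size of the difference. At least 16-fold higher were 288 probe sets (1.27%) and at least 16-fold lower were 270 (1.19%). Beyond 64-fold, 102 were higher and 17 lower. Of the 288, 230 had a phloem level closer to that of cortex, and of the 270, 106 had a phloem level closer to that of xylem. A single gene was listed for 13513 probe sets, giving 13355 genes at 1 probe set each, and of these genes 12.9% were higher and 26.3% lower in xylem, with a median difference of -0.10. The counts of gene families below on the deposited scale are read against these shares. Leaving aside lists gathered from genes seen to differ, the 62 lists held 827 of these genes, of which 132 were higher and 253 lower, with a median of -0.17. Family counts moved with the scaling as well, and those after median centring and spike-in scaling, which shifted the median of all probe sets furthest up and down, are given beside them.

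**Figure D1:**
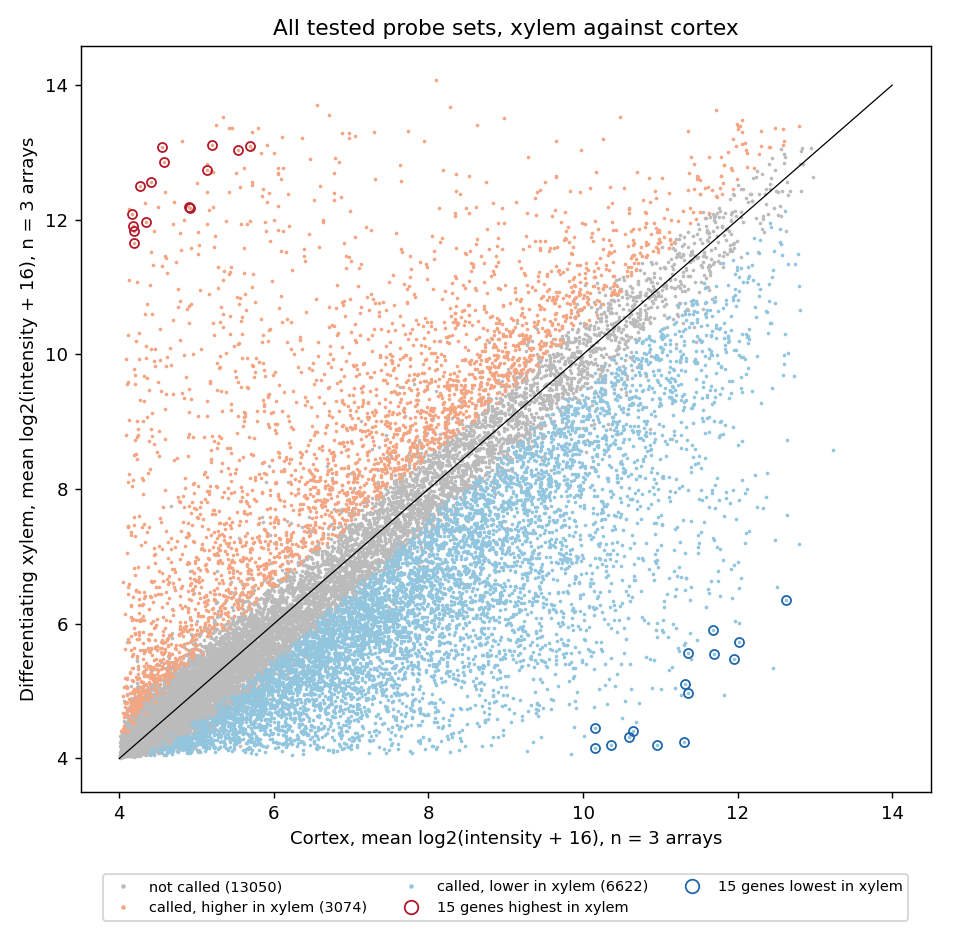
Mean log2(intensity + 16) of every tested probe set in cortex (horizontal) and differentiating xylem (vertical), 3 arrays each; orange points were called higher and blue points lower in xylem, and the line marks equal means. The 15 highest and 15 lowest named genes are circled. In the tissue where they are low, their means run from 4.16 (AT1G62510) to 6.35 (AT4G30170), so that some lie near the floor of the scale and others above it.

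Most of the genes that differed furthest are known here only by a locus tag, as are most measured genes. Of the 13355 genes, 1557 had another symbol. The highest was AT1G70500, which read 8627, 8899 and 8496 in the xylem arrays and 1.47, 20.4 and 4.08 in the cortex arrays, a difference of 8.54 (SE 0.26, adjusted p = 6.79e-08). AT2G27740 read 7543, 7393 and 7366 in the xylem arrays and 14.5, 2.55 and 8.18 in the cortex arrays and differed by 8.28 (SE 0.21, adjusted p = 3.73e-08). The 3 xylem arrays of both genes lay within a narrow range far above every cortex array. In phloem AT2G27740 stood at 1325 and 914, between the other tissues, whereas AT1G70500 stood there at 23.5 and 27.6.

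Further locus-tag genes on the xylem side were AT3G52900 at 8.23, AT1G79620 at 8.15, AT5G40020 at 7.91, AT1G24600 at 7.72 and AT1G10800 at 7.62. AT1G24030, AT4G04460, AT1G05310, AT3G62160, AT1G75090 and AT5G26330 followed, between 7.60 and 7.26. AT3G62160 had the smallest SE of the 15, at 8944, 8451 and 8770 in the xylem arrays and 37.0, 34.9 and 35.2 in the cortex arrays, a difference of 7.40 (SE 0.14, adjusted p = 2.54e-08). AT3G52900 spread more widely among the xylem arrays, at 5956, 8339 and 3840, and still did not overlap with its cortex values of 6.55, 2.82 and 0.936. AT4G04460 was the other gene with a clear phloem level, at 873 and 586. The adjusted p-values of all 15 were at most 2.88e-07, the value of AT1G05310.

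On the cortex side AT3G05150 differed most. It read 1.38, 3.93 and 3.4 in xylem and 2470, 2561 and 2533 in cortex, a difference of -7.07 (SE 0.17, adjusted p = 3.02e-08). AT5G11420 read 1.86, 3.52 and 2.01 in xylem and 2125, 1757 and 2033 in cortex and differed by -6.75 (SE 0.19, adjusted p = 5.38e-08). In both genes every xylem array lay under the pseudocount. AT4G30170 was bright in cortex at 5465, 7481 and 6213, against 61.9, 95.9 and 46.7 in xylem and 1471 and 1486 in phloem, a difference of -6.28 (SE 0.22, adjusted p = 1.51e-07).

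The cortex markers AT1G09750 and AT1G62510 were also among the 15 lowest, at -6.38 and -5.99. The others known by locus tag were AT5G42250, AT2G45180, AT5G36160, AT2G23910, AT5G04120, AT3G01190, AT4G22460, AT3G54400 and AT5G62210, between -6.47 and -5.70. AT3G54400 had the largest SE of the 15, with intensities of 75.9, 8.46 and 79.2 in the xylem arrays, where replicate 2 was far under the other arrays, against 3979, 3581 and 2456 in cortex. UGT71C1 (AT2G29750), a glycosyltransferase of small molecules, was the only one with a symbol, at 4.02, 8.81 and 3.25 in the xylem arrays and 1358, 2280 and 1287 in the cortex arrays.

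**Figure D2:**
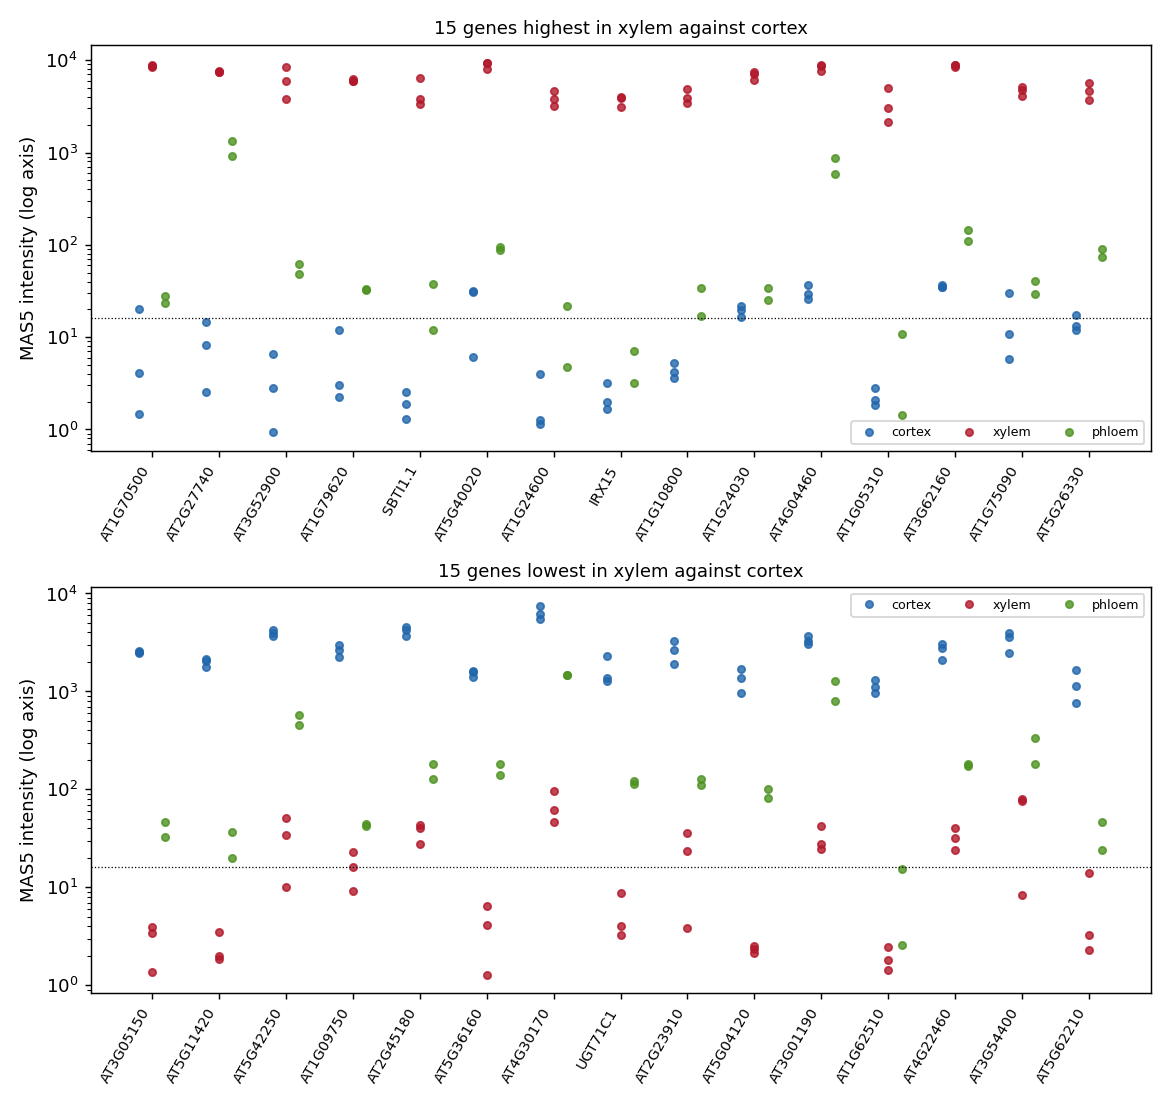
Intensity on a log axis in each array for the 15 genes highest and the 15 lowest in xylem against cortex; each point is 1 array and the dotted line marks the pseudocount of 16. Xylem and cortex do not overlap for any of these genes; among those highest in xylem, the phloem points of AT2G27740 and AT4G04460 lie nearer to xylem than to cortex.

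Among genes of the secondary wall, the listed xylan genes stood on the xylem side, while acetylation and lignin genes went both ways. Xylan, the main hemicellulose of that wall, is a chain of xylose that is decorated and acetylated in the Golgi. All 4 listed xylan genes (GUT2, GUT1, IRX15 and IRX15-L) were higher in xylem under every scaling, with a median of 4.97. GUT2 (AT1G27440), also known as IRX10, a xylosyltransferase that extends the chain, read 6214, 6207 and 4966 in the xylem arrays and 77.3, 99.4 and 67.9 in the cortex arrays. It differed by 5.90 (SE 0.17, adjusted p = 5.71e-08), and phloem was as low as cortex at 87.5 and 90.8. Its paralogue GUT1 (AT5G61840), named after its values were seen, read 1602, 1795 and 1786 in the xylem arrays and 545, 552 and 450.2 in the cortex arrays, a difference of 1.72 (SE 0.15, adjusted p = 1.95e-05). Xylem lay above cortex in every array for both.

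A further pair encodes related proteins needed for normal xylan. IRX15 (AT3G50220) read 3997, 3093 and 3866 in the xylem arrays and 3.21, 1.99 and 1.69 in the cortex arrays. IRX15-L (AT5G67210) read 4668, 5248 and 3967 in the xylem arrays and 221, 396 and 210.3 in the cortex arrays, a difference of 4.04 (SE 0.26, adjusted p = 3.19e-06) against 7.64 for IRX15. Neither overlapped between tissues, and IRX15 lay under the pseudocount in every cortex array.

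The trichome birefringence-like (TBL) family, whose members acetylate wall polysaccharides, parted in both directions. Of 23 measured genes, 6 were higher and 6 lower in xylem, with a median of -0.27 as deposited that turned positive after quantile normalization (0.01) and median centring (0.17). The lower count was near the share of all genes. Spike-in scaling gave 4 higher and 15 lower, and median centring 7 and 6. TBL34 (AT2G38320), a xylan acetyltransferase, read 4081, 4121 and 3838 in the xylem arrays and 32.3, 31.9 and 43.8 in the cortex arrays, a difference of 6.28 (SE 0.16, adjusted p = 3.61e-08). AT2G31110, listed as TBL40, read 3778, 4641 and 3113 in the xylem arrays and 134, 131 and 128 in the cortex arrays, and TBL19 (AT5G15900) differed by 3.31. On the other side TBL41 (AT3G14850) read 24.9, 50.1 and 23 in the xylem arrays and 1420, 1749 and 1255 in the cortex arrays, a difference of -4.97 (SE 0.26, adjusted p = 1.08e-06). TBL35 (AT5G01620), which acts on xylan together with TBL34, went against its partner at 81.3, 39.9 and 59.7 in the xylem arrays and 1153, 1065 and 1115 in the cortex arrays (-3.92). TBL39 (AT2G42570) read 144, 26.5 and 131 in the xylem arrays and 3284, 3167 and 3215 in the cortex arrays, with replicate 2 the lowest xylem array, and its difference was -5.02 (SE 0.44, adjusted p = 2.41e-05) and -4.40 without that array.

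Lignin genes were measured sparsely. HCT (AT5G48930), which channels phenylpropanoids into lignin monomers, read 4028, 6258 and 3645 in the xylem arrays and 849, 844 and 657 in the cortex arrays, a difference of 2.51 (SE 0.25, adjusted p = 4.84e-05). It was the only one of 10 measured genes of the monolignol pathway and the UGT72 group that was higher in xylem, and 6 were lower. Those lower were mostly UGT72 enzymes, which glucosylate monolignols and related phenolics. UGT72E2 (AT5G66690) read 145, 145 and 120.2 in the xylem arrays and 4219, 3521 and 2427 in the cortex arrays, a difference of -4.45 (SE 0.22, adjusted p = 7.22e-07). GT72B1 (AT4G01070) and UGT72E3 (AT5G26310) differed by -2.81 and -2.52. The median of -1.48 kept its sign under the 4 other scalings. Under median centring 2 were higher and 5 lower, and under spike-in scaling 1 and 8. ALDH2C4 (AT3G24503), which oxidises coniferaldehyde and sinapaldehyde to the free acids, was likewise lower, at 76.1, 70.4 and 81.1 in the xylem arrays and 2533, 2424 and 2112 in the cortex arrays, a difference of -4.69 (SE 0.14, adjusted p = 6.23e-08). Class III peroxidases couple phenolics in the wall, and 6 were listed by symbol or synonym, so members without a matching name are not counted. Of these 6, 0 were higher and 2 lower, with 1 called higher without xylem replicate 2. Spike-in scaling gave 0 higher and 4 lower, and median centring 2 and 2. The lower ones among the 6 were AT5G64120, listed as PRX71, at -4.03 and PRXR1 (AT4G21960) at -1.60.

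Regulators of vascular and secondary wall development were few among the named probe sets. AT1G66810, listed as AtC3H14, a zinc finger protein that promotes secondary wall genes, read 2460, 2524 and 2328 in the xylem arrays and 79.8, 60.4 and 42.3 in the cortex arrays, a difference of 5.03 (SE 0.20, adjusted p = 2.32e-07). PHV (AT1G30490), an HD-ZIP III factor of xylem patterning, read 232, 211 and 245 in the xylem arrays and 23.6, 8.62 and 30.5 in the cortex arrays, a difference of 2.78 (SE 0.26, adjusted p = 3.21e-05). Both were separated from cortex in every array. LHW (AT2G27230), a bHLH factor that drives early vascular divisions, was in contrast lower in these differentiating cells, at 119, 84.9 and 89.9 in the xylem arrays and 248, 280.4 and 171 in the cortex arrays, a difference of -1.12 (SE 0.21, adjusted p = 0.00245).

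Enzymes that build and loosen the primary wall were measured in several families. Of 8 cellulose synthase-like genes none was higher and 5 were lower, with a median of -0.94 that was negative under all 5 scalings. Under median centring 0 were higher and 3 lower, and under spike-in scaling 0 and 8. CSLD2 (AT5G16910), of the group that makes glucans in root hairs, read 233, 106 and 234 in the xylem arrays and 1054, 1362 and 1660 in the cortex arrays, a difference of -2.78 (SE 0.29, adjusted p = 7.65e-05). CSLA03 (AT1G23480), of the mannan synthase group, and CSLC5 (AT4G31590), of the xyloglucan backbone group, differed by -1.63 and -1.04.

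Expansins loosen walls without cutting them. Of 19 measured, 2 were higher and 4 lower, both near the shares of all genes. Their median of -0.05 changed sign under quantile normalization (0.16), median centring (0.38) and trimmed-mean scaling (0.06). Spike-in scaling gave 1 higher and 9 lower, and median centring 6 and 2. EXPA8 (AT2G40610) read 3.55, 9.54 and 15.1 in the xylem arrays and 327, 331 and 240.1 in the cortex arrays, a difference of -3.65 (SE 0.24, adjusted p = 4.68e-06), and EXPA9 (AT5G02260) differed by -3.27. EXLA2 (AT4G38400), an expansin-like gene, went the other way at 346, 124 and 332 in the xylem arrays and 43.2, 26.1 and 27.1 in the cortex arrays, a difference of 2.45 (SE 0.41, adjusted p = 0.00117). Xyloglucan endotransglucosylases, which cut and rejoin xyloglucan, split 2 higher to 4 lower among 10, or 1 higher without any one xylem or cortex array other than xylem replicate 2, with a median of -0.35 that became 0.08 after median centring. Under median centring 3 were higher and 4 lower, and under spike-in scaling 1 and 5. XTH19 (AT4G30290) read 13.0, 2.09 and 19.5 in the xylem arrays and 561, 594 and 849 in the cortex arrays, a difference of -4.67 (SE 0.27, adjusted p = 2.06e-06), and XTH32 (AT2G36870) was higher by 2.22.

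Among 15 GH9 endoglucanases, 3 were higher and 3 lower, of which 1 lower call was left without cortex replicate 2. Median centring gave 8 higher and 2 lower, and spike-in scaling 1 and 6. The median of 0.05 became -0.58 under spike-in scaling. GH9B13 (AT4G02290) read 19.5, 33.5 and 35.1 in the xylem arrays and 1917, 1713 and 1947 in the cortex arrays, a difference of -5.39 (SE 0.19, adjusted p = 1.38e-07). GH9B5 (AT1G19940) read 859, 789.7 and 580 in the xylem arrays and 46.2, 48.6 and 59.0 in the cortex arrays, a difference of 3.48 (SE 0.20, adjusted p = 1.95e-06). The pair was thus split by tissue with no overlap on either side. Of the pectin methylesterases, which set the stiffness of pectin, PMEPCRF (AT5G53370) is given here. It was picked after its values were seen and says nothing of the enzyme class as a whole, whose members without a matching name were not listed. PMEPCRF read 62.5, 59.1 and 34.2 in the xylem arrays and 2077, 2183 and 1996 in the cortex arrays, a difference of -4.98 (SE 0.19, adjusted p = 2.16e-07).

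**Figure D3:**
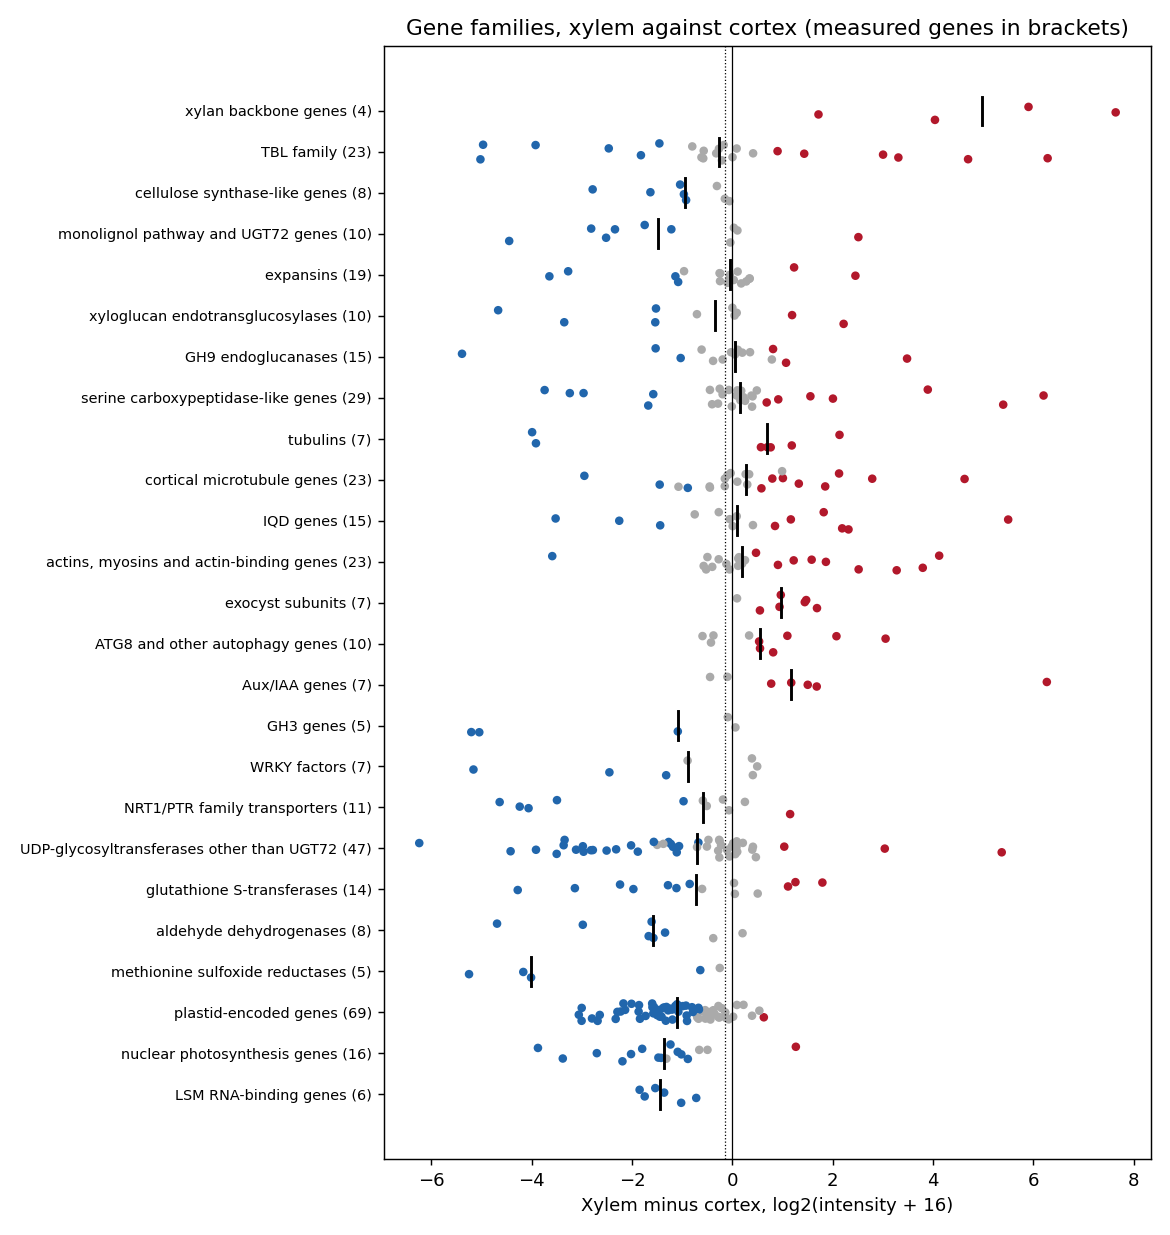
Difference of each measured gene of 25 families, xylem minus cortex on the log2(intensity + 16) scale; red points were called higher, blue points lower, grey points not called, and the black bar is the family's median. The dotted line is the median of all probe sets at -0.14; xylan genes lie wholly to the right of it, LSM genes wholly to the left, and TBL, IQD and tubulin genes on both sides.

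Several hydrolases were measured. SBTI1.1 (AT1G01900), a subtilisin-like protease, read 3803, 6461 and 3356 in the xylem arrays and 1.31, 2.56 and 1.87 in the cortex arrays, a difference of 7.93 (SE 0.31, adjusted p = 2.09e-07). It was the only one of 11 subtilases called higher, against 2 without xylem replicate 1, and 2 were lower, or 1 without any single array other than xylem replicate 3 or cortex replicate 3. Its family's median of 0.11 became -0.27 under spike-in scaling. Median centring gave 5 higher and 1 lower, and spike-in scaling 1 and 3. ALPHA-VPE (AT2G25940), a vacuolar processing enzyme that matures proteins in the vacuole, read 605, 849 and 580.4 in the xylem arrays and 3.42, 18.3 and 10.3 in the cortex arrays, a difference of 4.72 (SE 0.26, adjusted p = 1.38e-06). The other 3 measured members of its family did not pass on the deposited scale. Spike-in scaling gave 1 higher and 1 lower, and median centring 3 and 0. BGLU41 (AT5G54570) was the only one of 22 beta-glucosidases called higher, at 941, 1318 and 821 in the xylem arrays and 7.81, 10.7 and 21.1 in the cortex arrays, a difference of 5.16 (SE 0.25, adjusted p = 6.4e-07), and 7 were lower. The 7 lower were near the share of all genes. Under median centring 4 were higher and 5 lower, and under spike-in scaling 1 and 17. Of the 22, 10 had mean intensities under 16 in both tissues.

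Serine carboxypeptidase-like genes, which encode peptidases and acyltransferases, fell on both sides. Of 29, 7 were higher and 5 lower, with a median of 0.16 that became -0.14 under spike-in scaling. Median centring gave 14 higher and 5 lower, and spike-in scaling 5 and 10. The gene scpl48 (AT3G45010) read 12230, 14390 and 12840 in the xylem arrays and 238, 369 and 293 in the cortex arrays, a difference of 5.40 (SE 0.18, adjusted p = 1.06e-07). Its relative scpl20 (AT4G12910) read 5595, 5685 and 4706 in the xylem arrays and 57.4, 48.2 and 64.4 in the cortex arrays, a difference of 6.20 (SE 0.16, adjusted p = 3.73e-08), and SCPL45 (AT1G28110) was higher by 3.90. Lower were scpl40 (AT3G63470) at -3.74, scpl26 (AT2G35780) at -3.24 and SCPL34 (AT5G23210) at -2.96.

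Autophagy delivers cell contents to the vacuole in vesicles coated with ATG8. Of 10 measured autophagy genes, 6 were higher and none lower, with a median of 0.54 that became -0.41 under spike-in scaling. Only 3 were higher without cortex replicate 1 or 2, and 1 was lower without xylem replicate 1. Under median centring 7 were higher and 0 lower, and under spike-in scaling 2 and 4. ATG8D (AT2G05630) read 1185, 1090 and 827 in the xylem arrays and 119.6, 94.2 and 115 in the cortex arrays, a difference of 3.05 (SE 0.18, adjusted p = 1.9e-06). APG8A (AT4G21980), also an ATG8 gene, read 1827, 1259 and 1133 in the xylem arrays and 345, 337 and 267 in the cortex arrays, a difference of 2.08 (SE 0.20, adjusted p = 4.65e-05). Phloem was as high as xylem or higher for both, at 1078 and 982 for ATG8D and 2327 and 2149 for APG8A.

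Tubulins changed isoform by isoform. Microtubules are polymers of alpha- and beta-tubulin that guide cellulose synthase along the membrane. TUB6 (AT5G12250), a beta-tubulin, read 7404, 4087 and 6202 in the xylem arrays and 1428, 1200 and 1252 in the cortex arrays, a difference of 2.14 (SE 0.24, adjusted p = 0.000113). The beta-tubulin TUB1 (AT1G75780) read 351, 241 and 224 in the xylem arrays and 4273, 4293 and 4161 in the cortex arrays, a difference of -3.91 (SE 0.18, adjusted p = 5.07e-07). TUB5 (AT1G20010) moved with TUB1, at 366, 109 and 178 in the xylem arrays and 3538, 3240 and 3178 in the cortex arrays, a difference of -3.99 (SE 0.34, adjusted p = 2.16e-05). None of the 3 overlapped between the tissues, and phloem was low for TUB1 and TUB5 as well, at 452 and 476 and 361 and 356. In all 5 of 7 tubulins were higher, the others more modestly than TUB6: TUB7 (AT2G29550) by 1.19 and TUA1 (AT1G64740) by 0.77. The count was 3 without xylem replicate 1 or 3 or cortex replicate 1 or 2, the median of 0.70 became -0.27 under spike-in scaling, and TUA1 changed sign there (-0.01). Spike-in scaling gave 1 higher and 2 lower, and median centring 5 and 2.

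Further proteins organise the cortical array of microtubules. Of 23 such genes, 8 were higher and 3 lower, with a median of 0.27 that became -0.28 under spike-in scaling, and without xylem replicate 1 there were 5 lower. Under median centring 13 were higher and 2 lower, and under spike-in scaling 5 and 9. TRM15 (AT4G00440), of a family that recruits the TON1 complex to microtubules, read 1452, 775 and 1318 in the xylem arrays and 20.4, 37.6 and 36.5 in the cortex arrays, a difference of 4.63 (SE 0.28, adjusted p = 2.7e-06). It was as bright in phloem, at 1487 and 967. TRM19 (AT3G53540) was higher by 2.79, and SP1L4 (AT5G15600), a SPIRAL1-like microtubule protein, by 2.13. TRM28 (AT5G03670) was lower, at 0.805, 9.92 and 0.792 in the xylem arrays and 157, 168 and 89.9 in the cortex arrays, a difference of -2.95 (SE 0.28, adjusted p = 3.83e-05). KINESIN-13A (AT3G16630), which shapes the pits of metaxylem walls, was named after its values were seen: it read 2591, 2091 and 3267 in the xylem arrays and 977, 1051 and 1067 in the cortex arrays, a difference of 1.33 (SE 0.20, adjusted p = 0.000605).

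IQD proteins tether calmodulin to microtubules. Of 15 measured, 6 were higher and 3 lower, and the median of 0.09 became -0.44 under spike-in scaling. Spike-in scaling gave 4 higher and 6 lower, and median centring 8 and 2. The gene iqd33 (AT5G35670) read 1116, 482 and 1002 in the xylem arrays and 2.97, 0.719 and 3.66 in the cortex arrays, a difference of 5.50 (SE 0.30, adjusted p = 1.42e-06), and was as bright in phloem at 1060 and 799. IQD31 (AT1G74690) read 3291, 3088 and 3482 in the xylem arrays and 644, 611 and 688 in the cortex arrays, a difference of 2.32 (SE 0.16, adjusted p = 4.98e-06). IQD19 (AT4G14750) lay on the other side, at 7.63, 17.3 and 33.4 in the xylem arrays and 431, 357 and 336 in the cortex arrays, a difference of -3.52 (SE 0.27, adjusted p = 1.12e-05).

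Actin genes and actin-binding proteins showed 9 higher and 1 lower of 23, with a median of 0.19 that became -0.17 under spike-in scaling, and with 2 lower without xylem replicate 2 or 3. Under median centring 13 were higher and 1 lower, and under spike-in scaling 7 and 8. ACT11 (AT3G12110), an actin, read 7159, 5026 and 7357 in the xylem arrays and 380.1, 359 and 324 in the cortex arrays, a difference of 4.12 (SE 0.21, adjusted p = 1.06e-06). PLIM2b (AT1G01780), a LIM protein that bundles actin filaments, read 1089, 442 and 1061 in the xylem arrays and 64, 34.7 and 34.2 in the cortex arrays, with replicate 2 the lowest xylem array. Its difference was 3.80 (SE 0.35, adjusted p = 3.21e-05), and 4.21 without that array. NET2D (AT2G22560), which links actin to membranes, was higher by 3.28, and NET4B (AT2G30500), of the same family, was lower at 113, 39.5 and 152 in the xylem arrays and 1160, 1386 and 1251 in the cortex arrays, a difference of -3.59 (SE 0.36, adjusted p = 5.51e-05).

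The switch that starts branched actin growth is described by 4 genes picked because they differed, so that they say nothing of the pathway as a whole. PIR121 (AT5G18410) and BRK1 (AT2G22640), subunits of the SCAR/WAVE complex, differed by 2.64 (SE 0.21, adjusted p = 1.24e-05) and 2.41 (SE 0.22, adjusted p = 3.16e-05). PIR121 read 2515, 3417 and 2042 in the xylem arrays and 446, 398 and 374 in the cortex arrays. SPK1 (AT4G16340), which activates the ROP GTPases upstream of that complex, read 2482, 2346 and 2639 in the xylem arrays and 669, 579 and 482 in the cortex arrays, a difference of 2.09 (SE 0.17, adjusted p = 1.45e-05). SCN1 (AT3G07880), which holds ROPs inactive, was higher by 0.92.

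**Figure D4:**
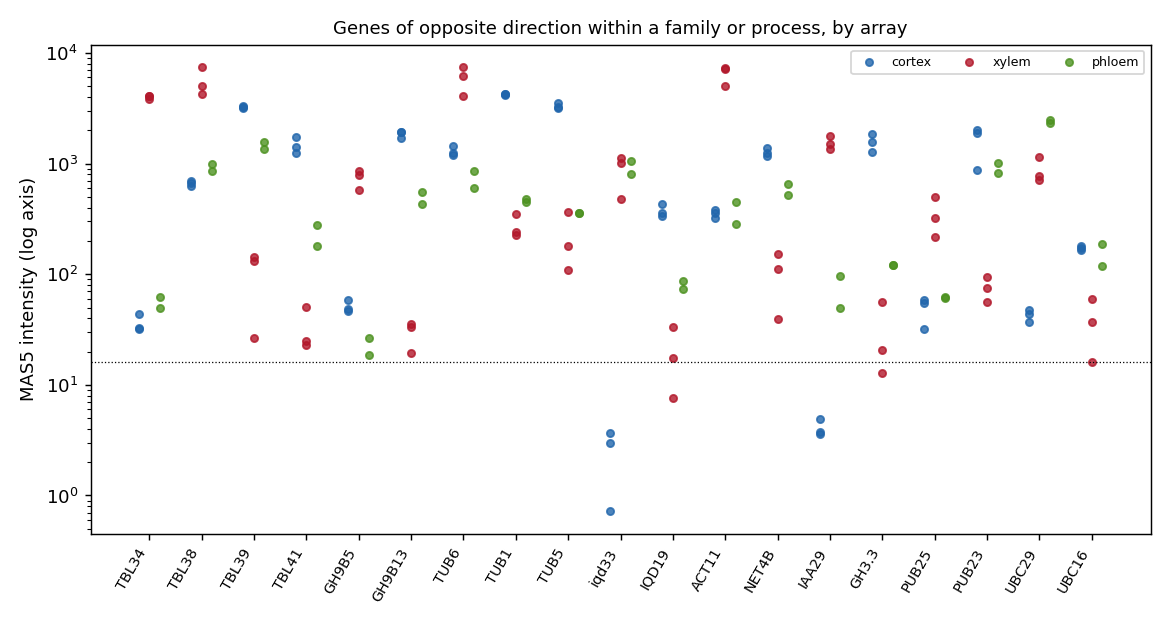
Intensity on a log axis in each array for genes of opposite direction within a family or process (for example TBL34 and TBL39, TUB6 and TUB1, IAA29 and GH3.3); each point is 1 array and the dotted line marks the pseudocount of 16. For each gene the 3 xylem points lie wholly above or wholly below the 3 cortex points.

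The exocyst tethers Golgi vesicles to the plasma membrane, where wall matrix is released. Of 7 measured subunits 6 were higher in xylem and none lower, with a median of 0.97 that was positive under all 5 scalings. Under median centring 7 were higher and 0 lower, and under spike-in scaling 2 and 1. SEC10 (AT5G12370) read 1713, 1842 and 1816 in the xylem arrays and 513, 551 and 571 in the cortex arrays, a difference of 1.69 (SE 0.14, adjusted p = 2.01e-05). EXO84B (AT5G49830) and SEC15A (AT3G56640) were higher by 1.47 and 1.44. Other trafficking families were split. ESCRT proteins sort membrane cargo into multivesicular bodies, and of 12 measured 3 were higher and 3 lower, or 1 lower without xylem replicate 2, cortex replicate 2 or 3 or either phloem array. VPS24.1 (AT5G22950) was higher by 1.12, and VPS60.2 (AT5G04850) differed by -0.83. The lower ESCRT count with all arrays was near the share of all genes. Spike-in scaling gave 0 higher and 7 lower, and median centring 7 and 0. PRA1 proteins bind Rab GTPases, and 3 of 11 were higher, led by PRA7 (AT1G55190) at 1.82, and 2 lower, or 1 without xylem replicate 1 or 3 or cortex replicate 1. Under median centring 5 were higher and 1 lower, and under spike-in scaling 1 and 7. Of 15 tetraspanins, which organise membrane domains, 5 were lower, with TET3 (AT3G45600) at -3.11 and TET2 (AT2G19580) at -2.89. The tetraspanin called higher, TET7 (AT4G28050) at 0.60, turned to -0.36 under spike-in scaling. None was higher without xylem replicate 1 or 3 or cortex replicate 2 or 3, and 2 were higher without xylem replicate 2. The 5 lower tetraspanins were not far above the share of all genes. Spike-in scaling gave 0 higher and 8 lower, and median centring 5 and 3. A pair of vesicle fusion genes is given here, picked after their values were seen. KEU (AT1G12360), a Sec1 protein that steers vesicle fusion, read 2096, 1957 and 1869 in the xylem arrays and 500, 754 and 717 in the cortex arrays, a difference of 1.58 (SE 0.18, adjusted p = 0.00012), and the SNARE YKT61 (AT5G58060) was higher by 1.19.

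Proteins to be secreted fold in the endoplasmic reticulum, and the genes given here for that process were likewise picked after their values were seen. They say nothing of the process as a whole. Other genes of their list were lower in xylem, and the lowest difference in it was -1.05. OS9 (AT5G35080), which marks misfolded glycoproteins for removal, read 1382, 1425 and 1129 in the xylem arrays and 455, 402 and 396 in the cortex arrays, a difference of 1.61 (SE 0.18, adjusted p = 9.61e-05). The calreticulin CRT1b (AT1G09210) read 7072, 6075 and 6807 in the xylem arrays and 2575, 3085 and 2271 in the cortex arrays, a difference of 1.33 (SE 0.18, adjusted p = 0.000312). The membrane-bound factors BZIP17 (AT2G40950) and BZIP28 (AT3G10800), which switch on chaperone genes, were higher by 1.29 and 1.20. Of 23 bZIP factors, these 2 were higher and 7 lower on the deposited scale, both near the shares of all genes. Under median centring 10 were higher and 4 lower, and under spike-in scaling 0 and 13. Their median of -0.10 became 0.14 after quantile normalization, 0.33 after median centring and 0.03 after trimmed-mean scaling.

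Auxin drives xylem formation, and genes of its response and its inactivation were measured. Aux/IAA proteins repress auxin response and are themselves induced by auxin. Of 7 measured, 5 were higher in xylem and none lower, with a median of 1.17 that was positive under all 5 scalings. Spike-in scaling gave 2 higher and 1 lower, and median centring 5 and 0. IAA29 (AT4G32280) read 1491, 1764 and 1362 in the xylem arrays and 3.6, 3.73 and 4.9 in the cortex arrays, a difference of 6.27 (SE 0.22, adjusted p = 1.47e-07). IAA18 (AT1G51950) read 402, 142 and 366 in the xylem arrays and 89.8, 71.2 and 66.9 in the cortex arrays and IAA30 (AT3G62100) 160.4, 158 and 109 in the xylem arrays and 35, 28.4 and 58.1 in the cortex arrays, with differences of 1.68 and 1.5. IAA18 was as bright in phloem, at 415 and 412, and its call was lost in 1 of 18 alternative settings.

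GH3 enzymes join auxin to amino acids and so remove it. None of 5 measured was higher and 3 were lower, with a negative median under all 5 scalings (-1.09 as deposited). Under median centring 1 were higher and 3 lower, and under spike-in scaling 0 and 3. GH3.3 (AT2G23170) read 12.9, 56.2 and 20.5 in the xylem arrays and 1281, 1845 and 1557 in the cortex arrays, a difference of -5.20 (SE 0.32, adjusted p = 2.62e-06). GH3.17 (AT1G28130) read 16.0, 3.87 and 21.8 in the xylem arrays and 1113, 1142 and 641 in the cortex arrays, a difference of -5.04 (SE 0.30, adjusted p = 2.23e-06). WES1 (AT4G27260) differed by -1.09. None of the 4 measured YUC auxin synthesis genes and none of the 6 cytokinin response regulators passed in limma, where 0 and 1 had an unadjusted p under 0.05. Mean intensities were under 16 in both tissues for 2 of these YUC genes and 4 of these response regulators. Without xylem replicate 3, 1 of each was called, and without xylem replicate 2, 1 response regulator. Of the response regulators 5 were called higher after median centring and 1 lower after spike-in scaling, and of the YUC genes 1 higher and 2 lower.

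Among peptide signals, RALFL34 (AT5G67070), a RALF peptide of lateral root initiation, was lower at 127, 68.9 and 150.3 in the xylem arrays and 1014, 795 and 819 in the cortex arrays, a difference of -2.81 (SE 0.25, adjusted p = 2.92e-05). RALFL32 (AT4G14010) was higher by 1.98 and RALFL24 (AT3G23805) by 1.63. CLE41 (AT3G24770), a phloem-made peptide that blocks xylem differentiation, read 22.6, 22.1 and 17.5 in the xylem arrays and 207, 144 and 154 in the cortex arrays against 1436 and 1154 in phloem, and the difference between xylem and cortex was -2.32 (SE 0.19, adjusted p = 1.57e-05).

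WRKY factors regulate defence and stress responses. WRKY6 (AT1G62300), a factor of senescence and phosphate response, read 18.3, 15.1 and 28.6 in the xylem arrays and 837, 1243 and 2002 in the cortex arrays, a difference of -5.16 (SE 0.30, adjusted p = 2.02e-06). WRKY47 (AT4G01720) and WRKY53 (AT4G23810) were lower at -2.45 and -1.32, and of 7 WRKY genes 3 were lower and 0 higher, or 1 higher without xylem replicate 1 or 2. Median centring gave 3 higher and 3 lower, and spike-in scaling 0 and 5. The U-box ubiquitin ligases PUB22 (AT3G52450) and PUB23 (AT2G35930), which damp immune signalling, moved as a pair. PUB23 read 74.9, 56.2 and 93.5 in the xylem arrays and 869, 1999 and 1886 in the cortex arrays, a difference of -4.07 (SE 0.32, adjusted p = 1.17e-05), and PUB22 differed by -3.83 (SE 0.22, adjusted p = 1.95e-06). Their relatives PUB25 (AT3G19380) and PUB26 (AT1G49780) were higher, by 2.45 and 1.78. Among ubiquitin-conjugating enzymes UBC29 (AT2G16740) stood out at 779, 1149 and 712 in the xylem arrays and 37.0, 44.0 and 47.8 in the cortex arrays, a difference of 3.90 (SE 0.20, adjusted p = 8.93e-07), and phloem was brighter still at 2486 and 2315.

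ER bodies are stores of beta-glucosidase that react on wounding. The genes given here were gathered after their values were seen. PYK10 (AT3G09260), the main ER body glucosidase, read 801, 112 and 712 in the xylem arrays and 6053, 6986 and 6140 in the cortex arrays. Its difference was -3.92 (SE 0.60, adjusted p = 0.000759), and -3.05 without xylem replicate 2, which lay far under the other xylem arrays. The jacalin lectin JAL33 (AT3G16450) read 164, 159.7 and 190.3 in the xylem arrays and 2302, 2882 and 2320 in the cortex arrays, a difference of -3.75 (SE 0.16, adjusted p = 3.24e-07), with no such gap. NAI2 (AT3G15950), which builds the bodies, and NAI1 (AT2G22770), the bHLH factor that switches them on, differed by -4.01 (SE 0.37, adjusted p = 3.09e-05) and -2.76 (SE 0.33, adjusted p = 0.000148). PYK10 and NAI2 were as bright in phloem as in cortex, at 6007 and 5439 and 1420 and 1434.

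Glucosinolates are stored defence compounds, and their transporters GTR1 (AT3G47960) and GTR2 (AT5G62680) were lower in xylem. GTR1 read 199.8, 115 and 239 in the xylem arrays and 2577, 3593 and 5140 in the cortex arrays, a difference of -4.24 (SE 0.30, adjusted p = 6.96e-06), and GTR2 differed by -3.49 (SE 0.19, adjusted p = 1.31e-06). They belong to the NRT1/PTR transporters, of which 5 of 11 were lower and 1 higher, the latter not without cortex replicate 2. Median centring gave 1 higher and 4 lower, and spike-in scaling 0 and 8. AT3G21670, listed as NPF6.4, read 5.61, 11.4 and 6.82 in the xylem arrays and 631, 497 and 610.1 in the cortex arrays, a difference of -4.64 (SE 0.20, adjusted p = 3.45e-07), and was as low in phloem as in xylem, at 2.81 and 6.21.

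UDP-glycosyltransferases attach sugars to hormones and defence compounds. Outside the UGT72 group 22 of 47 were lower and 3 higher, or 5 higher without xylem replicate 2, with a median of -0.70 that was negative under all 5 scalings. Under median centring 8 were higher and 20 lower, and under spike-in scaling 2 and 33. UGT73B1 (AT4G34138) read 12.1, 11.8 and 19.7 in the xylem arrays and 507, 439 and 385 in the cortex arrays, a difference of -3.91 (SE 0.19, adjusted p = 7.18e-07). UGT76B1 (AT3G11340), which glucosylates defence signals, read 367, 30.0 and 192 in the xylem arrays and 2933, 3646 and 3303 in the cortex arrays, and its difference was -4.42 (SE 0.64, adjusted p = 0.000508), or -3.55 without xylem replicate 2. UGT74F1 (AT2G43840), a salicylic acid glucosyltransferase, went the other way at 651, 1006 and 799 in the xylem arrays and 4.84, 3.75 and 3.15 in the cortex arrays, a difference of 5.37 (SE 0.21, adjusted p = 1.99e-07). UGT87A2 (AT2G30140) was higher by 3.04.

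Of 7 measured flavonoid genes 2 were lower in xylem, near the share of all genes, and 0 higher. CHIL (AT5G05270), a chalcone isomerase-like protein, read 221, 91.2 and 220.1 in the xylem arrays and 3168, 3195 and 2687 in the cortex arrays, a difference of -4.06 (SE 0.32, adjusted p = 1.21e-05). UGT78D2 (AT5G17050), a flavonoid glucosyltransferase, differed by -2.82, and the other 5 measured flavonoid genes did not pass. Spike-in scaling gave 0 higher and 3 lower, and median centring 1 and 2. Glutathione S-transferases, which detoxify reactive compounds, split 3 higher to 7 lower of 14, with a negative median under all 5 scalings (-0.73 as deposited). Under median centring 5 were higher and 4 lower, and under spike-in scaling 1 and 8. GSTU27 (AT3G43800) read 74.6, 91.8 and 86.7 in the xylem arrays and 1965, 2500 and 1448 in the cortex arrays, a difference of -4.28 (SE 0.21, adjusted p = 7.15e-07), whereas GSTU18 (AT1G10360) was higher by 1.80. Among CYP71B cytochromes P450, 6 of 19 were lower and 1 higher, or 2 higher without xylem replicate 1 or cortex replicate 1, and the median of 0.01 became -0.32 under spike-in scaling. The 6 lower were near the share of all genes. Median centring gave 8 higher and 6 lower, and spike-in scaling 1 and 7. Of the 19, 9 had mean intensities under 16 in both tissues. CYP71B34 (AT3G26300) read 13.0, 29.2 and 20.3 in the xylem arrays and 479, 502 and 396 in the cortex arrays, a difference of -3.71 (SE 0.21, adjusted p = 1.85e-06).

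Aldehyde dehydrogenases clear reactive aldehydes. Of 8 measured, 6 were lower and none higher, with a negative median under all 5 scalings (-1.59 as deposited), with 1 higher after median centring. ALDH7B4 (AT1G54100) followed ALDH2C4 at 462, 378 and 435 in the xylem arrays and 3548, 3405 and 3392 in the cortex arrays, a difference of -2.98 (SE 0.14, adjusted p = 5.38e-07). Methionine sulfoxide reductases repair oxidised proteins, and 4 of 5 were lower. Under median centring 0 were higher and 3 lower, and under spike-in scaling 0 and 5. MSRB5 (AT4G04830) read 153, 121 and 177 in the xylem arrays and 3475, 2700 and 2713 in the cortex arrays, a difference of -4.17 (SE 0.20, adjusted p = 7.02e-07). MSRB9 (AT4G21850) read 251, 11.7 and 451 in the xylem arrays and 5082, 6353 and 5803 in the cortex arrays, where xylem replicate 2 was far under the others, and its difference of -5.25 (SE 0.86, adjusted p = 0.00107) became -4.02 without that array.

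Most plastid-encoded genes were lower in xylem. Of 69 plastid-encoded genes, 45 were lower and 1 higher, with a median of -1.10 that was negative under all 5 scalings. The photosystem gene psbF read 78.5, 55.8 and 60.8 in the xylem arrays and 526, 702 and 674 in the cortex arrays, a difference of -3.0 (SE 0.18, adjusted p = 2.28e-06), and psbL and psbZ differed by -3.06 and -3.0. The exception was the ribosomal protein gene rpl14, at 0.63, which became -0.27 under spike-in scaling and was called with 1 array left out only when that was xylem replicate 2 or cortex replicate 1. Spike-in scaling gave 0 higher and 63 lower, and median centring 4 and 37. Phloem levels of psbF, 519.6 and 454, were close to those of cortex. Of 16 nuclear genes of photosynthesis and chlorophyll synthesis, 12 were lower, among them RCA (AT2G39730), the Rubisco activase, at 22.3, 25.5 and 7.66 in the xylem arrays and 391, 655 and 417 in the cortex arrays, a difference of -3.87 (SE 0.28, adjusted p = 7.12e-06). LHCB4.3 (AT2G40100), an antenna protein, was the 1 called higher, by 1.27. Under median centring 1 were higher and 10 lower, and under spike-in scaling 0 and 15.

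Central metabolism was mixed. ATP-citrate lyase makes the cytosolic acetyl-CoA used for waxes and sterols. ACLA-2 (AT1G60810), one of its subunit genes, picked after its values were seen, read 10600, 10240 and 9768 in the xylem arrays and 2794, 2951 and 2146 in the cortex arrays, a difference of 1.96 (SE 0.22, adjusted p = 0.000108). The subunit genes did not move together, and the lowest difference among them was -0.72. NDB3 (AT4G21490), an alternative NADH dehydrogenase of mitochondria, read 907, 323 and 1061 in the xylem arrays and 58.3, 60.5 and 44.8 in the cortex arrays, a difference of 3.31 (SE 0.39, adjusted p = 0.000146) and 3.83 without xylem replicate 2. ICDH (AT1G54340), an isocitrate dehydrogenase, was lower at 43.3, 32.1 and 41.7 in the xylem arrays and 273, 214 and 247 in the cortex arrays, a difference of -2.24 (SE 0.17, adjusted p = 1.15e-05). Of 23 genes of respiration and the citrate cycle 4 were higher and 5 lower, or 2 lower without cortex replicate 1 or 2, with a median of -0.26 that became 0.17 after median centring. The counts with all arrays were near the shares of all genes, 12.9% higher and 26.3% lower. Spike-in scaling gave 2 higher and 15 lower, and median centring 8 and 2.

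All 6 measured LSM genes, whose ring-shaped complexes serve splicing and mRNA decay, were lower, or 5 under 3 of the scalings, with a median of -1.45 that was negative under all 5. LSM6A (AT3G59810) read 41, 26.7 and 56.8 in the xylem arrays and 245, 144 and 182 in the cortex arrays, a difference of -1.85 (SE 0.26, adjusted p = 0.000388). Of 12 RNA polymerase subunits 6 were lower, again with a negative median under all 5 scalings (-0.83 as deposited). The exception was NRPC2 (AT5G45140), a large subunit of polymerase III, at 605, 516 and 716 in the xylem arrays and 80.4, 82.2 and 90.6 in the cortex arrays, a difference of 2.64 (SE 0.20, adjusted p = 1.12e-05). Under median centring 2 were higher and 3 lower, and under spike-in scaling 1 and 10. Of 16 listed PPR genes, whose proteins act on organelle RNA, 2 were higher and 3 lower, with LPA66 (AT5G48910) at 1.81 and PPR336 (AT1G61870) at -2.68. These counts were near the shares of all genes, and 9 of the 16 had mean intensities under 16 in both tissues. Spike-in scaling gave 1 higher and 7 lower, and median centring 6 and 1.

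The Aurora kinases AUR1 (AT4G32830) and AUR2 (AT2G25880), which act on mitotic chromosomes and the cell plate, were both higher. AUR2 read 304, 279 and 232 in the xylem arrays and 34.1, 50.2 and 25.9 in the cortex arrays, a difference of 2.46 (SE 0.22, adjusted p = 2.59e-05), and AUR1 read 538, 421 and 463 in the xylem arrays and 82.7, 116 and 140.4 in the cortex arrays, a difference of 1.95 (SE 0.21, adjusted p = 7.78e-05). They were 2 of 11 measured mitosis and spindle genes, and the other 9 did not pass with all arrays. Without xylem replicate 2, 3 were higher and 1 lower, and without xylem replicate 3, 1 was lower. Median centring gave 4 higher and 0 lower, and spike-in scaling 2 and 7. The median of -0.06 turned positive under all scalings but that to the spike-ins. A gene first listed with them, cdc2cAt (AT5G39420), was taken out after its values were seen because its role is unclear, and it differed by 2.94. The histone genes HTB1 (AT1G07790) and HTR12 (AT1G01370), the latter encoding the centromeric histone, were lower at -2.0 and -0.94, and 3 of 8 histone genes were lower and 0 higher, or 1 higher without xylem replicate 3. Median centring gave 1 higher and 1 lower, and spike-in scaling 0 and 7.

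Some heat stress genes differed among the xylem arrays themselves. ATHSP22.0 (AT4G10250), a small heat shock protein of the endoplasmic reticulum, read 1183, 198 and 1186 in the xylem arrays and 46.8, 40.3 and 47.1 in the cortex arrays, a difference of 3.48 (SE 0.58, adjusted p = 0.00122) and 4.31 without xylem replicate 2. Hop3 (AT4G12400), a co-chaperone, read 1109, 315 and 1197 in the xylem arrays and 224, 231 and 210.2 in the cortex arrays, and its difference of 1.69 (SE 0.45, adjusted p = 0.0138) was not called without xylem replicate 1 or xylem replicate 3 (adjusted p = 0.053 and 0.05) and rose to 2.30 without xylem replicate 2. Replicate 2 was the lowest xylem array for both, though it still lay above every cortex array. Of 15 heat shock and co-chaperone genes 4 were higher and 2 lower, against 2 higher without xylem replicate 1 or 3, 6 higher after median centring and 1 higher and 8 lower after spike-in scaling, and their median of -0.06 turned positive under all scalings but that to the spike-ins.

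**Figure D5:**
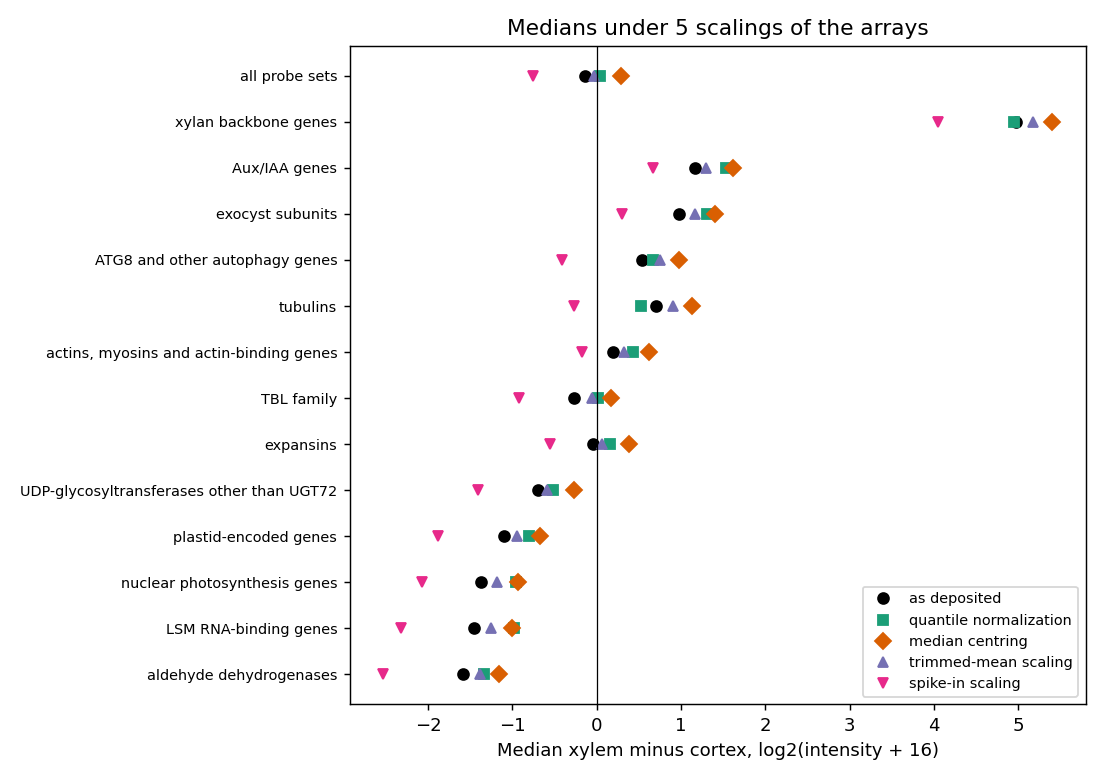
Median difference of all probe sets and of 13 gene families, xylem minus cortex on the log2(intensity + 16) scale, under 5 scalings of the arrays (symbols). Xylan, Aux/IAA and exocyst genes stay to the right of 0 and the lowest families to the left under all 5, while autophagy, tubulin, actin, TBL and expansin genes cross 0 under at least 1.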

How the data were processed

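Total RNA of sorted root protoplasts was hybridised to 8 arrays, 3 of differentiating xylem, 3 of cortex and 2 of phloem. The deposited values are linear intensities, 1 per probe set and array, which, per the submitters' processing notes, the authors made with the MAS5 algorithm. The sources used here give neither its version nor its target value. With no detection calls in the table, precision rests on how many arrays there are. All 8 arrays were assigned by their titles.

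Of 22810 probe sets, 64 controls were left out and 22746 tested. The deposited intensities were taken to log2 after adding 16, without renormalizing. A linear model with a mean for each population was then fitted to the 8 arrays by limma 3.58.1 in R 4.3.3, using its trend option. It left 5 residual degrees of freedom, to which moderation added 3.66. P-values were adjusted by Benjamini-Hochberg over all tested probe sets, with a threshold of 0.05. The labels call the arrays biological replicates. Tables and plots were made in Python 3.11.15 with pandas 2.3.3 and matplotlib 3.10.9. The fit was tested on simulated data.

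Gene names came from the platform's probe annotation and RefSeq TAIR10.1. A single gene was listed for 13513 probe sets and several for 503, and 8730 stay unnamed here. RefSeq matched 13436, and 1580 had a symbol. Probe sets of related transcripts (1061 ending in _s_at or _x_at) can bind several genes. A gene with several probe sets was represented by the one with the highest mean over the 8 arrays. Families were taken by patterns in symbols and synonyms, and the members of all lists were chosen with earlier results of these data known. A gene with no matching symbol or synonym was not counted in its family, even if it belongs there. The patterns were rewritten once the values could be seen. The lists for pectin methylesterases, ER bodies, SCAR/WAVE and ROP regulators, ER folding, vesicle fusion and ATP-citrate lyase were gathered from genes seen to differ, so no count or median of them is given. Some genes were taken out of other lists after their values were seen: CKS, ATCRT1, LCR, LEP and NdhS because the symbol matched by accident, and cdc2cAt because its role is unclear. Named genes are the 15 highest and 15 lowest called genes whose xylem and cortex arrays did not overlap, the 3 highest and 3 lowest called members of each family, and all measured marker genes. Others are marked as named after their values were seen. No gene of the pericycle, root cap and mitotic marker lists was measured. Promoter motifs and other sequences were planned and were not analysed here.

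Same-numbered xylem and cortex arrays had correlations of -0.105, -0.0449 and 0.148 between their deviations from the group means, so the numbers were not taken to pair the arrays. The alternatives were pseudocounts of 1 and 64, a filter on dim probe sets, 4 scalings, the 6 xylem and cortex arrays alone, no intensity trend, a replicate block, and leaving out each array.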

Additional observations from a re-analysis of the deposited data

How the results depend on the processing

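The 9696 calls for xylem against cortex came to 7602 among probe sets above the median intensity, 9508 to 14453 under the 4 other scalings, and 9188 to 9798 under the other alternatives. Leaving out 1 array gave 8209 to 9921 calls. With the replicate number as a block there were 9557, although the numbers share no more than a number. In all, 5597 probe sets kept their call in every one of the 18 alternatives that tested them. The filter on dim probe sets left some untested, and those count as kept there. Of 284 named genes 277 were called, and 198 of these kept their call wherever they were tested. That filter tested 256 of the 284. The cause of the changes below was not tested.

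Genes that changed sign under spike-in scaling were OPS (-0.10), AT2G28390 (-0.84), PEX4 (-0.029), AT4G34270 (-0.91), TUA1 (-0.01), VPS22 (-0.34), SNF7.1 (-0.20), PRA1.B4 (-0.032), TET7 (-0.36), RALFL31 (-0.07), rpl14 (-0.27), PUB49 (-0.39), UBP16 (-0.10) and UBP22 (-0.07). After median centring AT1G62500 (0.23), SWEET11 (0.39), AT3G12730 (0.31) and STZ (0.17) changed sign, after quantile normalization SWEET11 (0.48) and AT3G12730 (0.17), and after trimmed-mean scaling SWEET11 (0.14) and AT3G12730 (0.017). AT1G62500, SWEET11, AT3G12730 and STZ were not called on the deposited scale. With 1 array left out, 4 uncalled genes changed sign, with ranges of -0.385 to 0.006 for AT1G62500, -0.18 to 0.073 for SWEET11, -0.031 to 0.2 for AT2G28390 and -0.049 to 0.081 for AT4G34270.

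Without detection calls, intensities under 16 have no shown order. The cortex mean was under 16 for 104 of the 288 probe sets at least 16-fold higher in xylem, and the xylem mean was under 16 for 70 of the 270 at least 16-fold lower, so the sizes of those differences rest on the pseudocount.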
